A study of Mus musculus with 2 samples.

Results

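The genes of the Wnt pathway were followed in mouse epidermis that lacks IκBζ and in epidermis of its control genotype. They comprise the Wnt ligands, the Frizzled receptors with the co-receptor genes Lrp5 and Lrp6, the secreted inhibitors of the Dickkopf and Sfrp families with Wif1, the nuclear effectors Ctnnb1, Lef1 and Tcf7, and the feedback targets Axin2, Apcdd1, Nkd1 and Nkd2. The rule picks its 48 members by gene symbol, and it was written with earlier results of these data known. Of these, 45 were read by probes that could be named, among 18206 named genes in all. Lrp5, Lrp6 and the opposite-strand transcript Fzd10os were not analysed here.

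The knockout genotype was Nfkbiz flox/flox; K5-cre, and the control genotype was Nfkbiz flox/flox, so the floxed alleles are shared and the recombinase is not. The keratin 5 promoter that drives it is active in basal keratinocytes and in the outer root sheath of the hair follicle, and not in the immune cells, melanocytes or mesenchymal cells that can come away with an epidermal sheet. Skin was taken in the steady state, the epidermis was peeled off after ammonium thiocyanate, and each genotype was hybridised to 1 single-colour Agilent array. Age, sex and whether mice were pooled are not given in the sources used here. With 1 array per genotype there is no replicate check, so no difference was tested, and a gene counts here as apart when its signals differ at least 2-fold.

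Both arrays lay on 1 slide and were scanned on 1 day. The probes well above background made up 56.3% on the knockout array and 56.2% on the control array, and no spot was saturated. Precision is limited by there being so few arrays. Nfkbiz had a signal of 1760 on the knockout array and 3100 on the control array (log2 difference -1.04 ± 0.20). The place of its probe relative to the deleted part is not known, so this value does not check the labels. The keratin genes of the labelled tissue were present, with Krt5 at 54400 on the knockout array and 52200 on the control array (-0.16 ± 0.20). Signals are given unscaled, while differences are between log2 signals scaled by each array's 75th percentile, 226 on the knockout array and 194 on the control array, so a gene of slightly higher knockout signal can have a difference below 0. The value after ± is the standard error of the log2 difference that follows from the scanner's own error estimate for each spot, and it says nothing of how mice vary.

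Wnt proteins are lipid-modified secreted ligands that bind a Frizzled receptor together with Lrp5 or Lrp6. Binding disables a cytoplasmic destruction complex built on Axin, Apc, Gsk3 and casein kinase 1, so that β-catenin, encoded by Ctnnb1, accumulates and enters the nucleus, where it acts with Tcf and Lef factors. In skin the pathway is required for the formation of hair follicles and for hair growth, and basal epidermal cells both secrete Wnts and respond to them. Axin2 and the Nkd genes are negative regulators that are themselves induced by the pathway in many mouse tissues.

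Most members had like signals on both arrays, and those that stood apart did so in both directions. Of 31 members measured on both arrays, that is well above background and not saturated, 26 (83.9%) lay within 2-fold, against 92.6% of all 12408 genes measured on both. The feedback genes Axin2 and Nkd2 made up the 2 members that were higher by 2-fold or more. The 3 lower ones were the ligand Wnt16, the receptor Fzd9 and the inhibitor Dkk3. Together the 5 compare with 7.41% of all genes apart in either direction. The shares of members called were 6.45% higher and 9.68% lower, against 3.03% and 4.38% of all genes. These shares rest on 2 and 3 genes and were not tested against each other.

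A further 4 members were measured on the control array alone: Wnt9a, Wif1, Sfrp2 and Lef1. Each was at least 2-fold lower on the knockout array by its bound, which compares the control signal with the larger of 2 knockout values, the signal of that probe and the lowest one well above background. For Lef1 the larger was the signal of its own probe, so its bound is no lower limit. Of all genes measured on the control array alone, 36.9% passed 2-fold in this way. Wnt7a and Wnt8b were measured on the knockout array alone and neither passed 2-fold, as 17.0% of such genes did. The other 8 members were not well above background on either array. The median difference of the 31 members was -0.12, beside -0.04 over all genes.

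**Figure D1:**
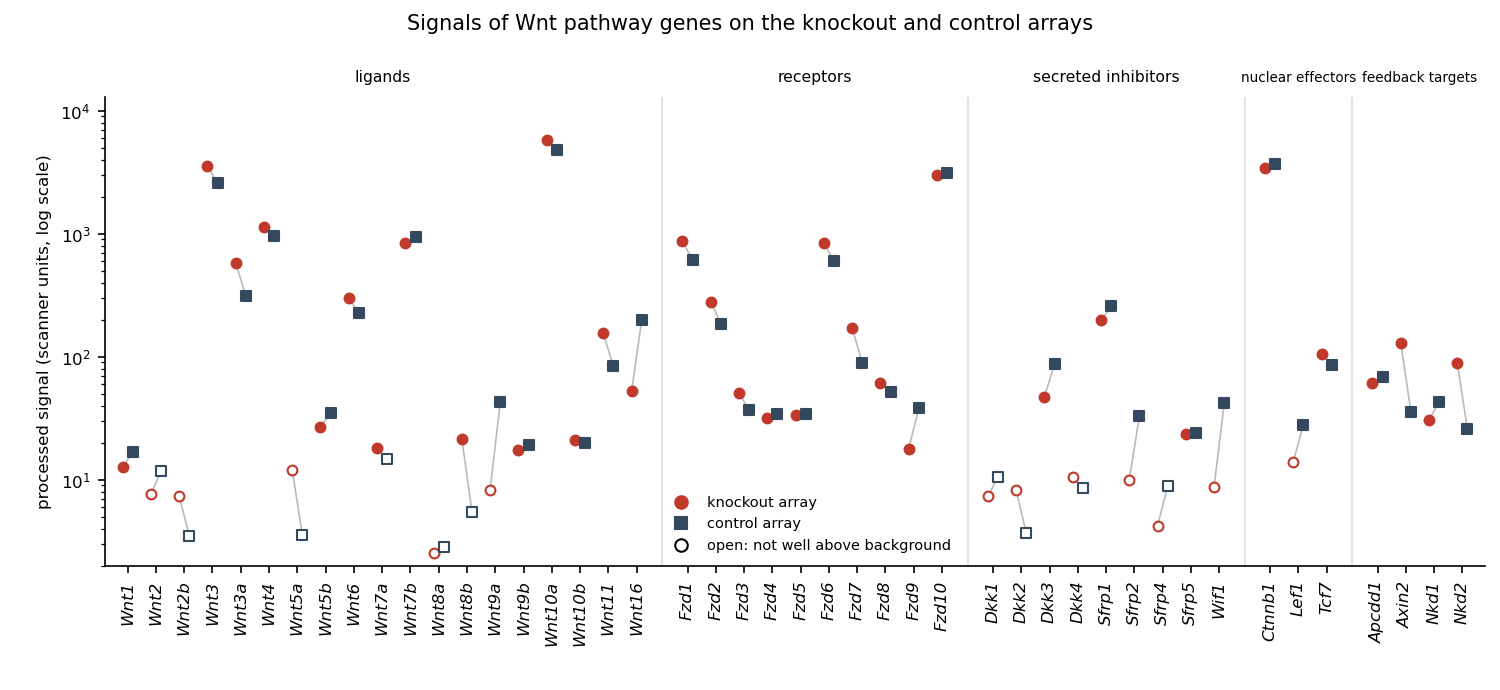
Processed signal (vertical axis, scanner units, log scale) of the 45 members with a named probe, by role, with the knockout array as circles left of the control array as squares. Open symbols were not well above background. Axin2 and Nkd2 are higher on the knockout array, Wnt16 is lower, and levels of different genes cannot be compared, since each is read by its own probe.

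The feedback genes held the members with the largest positive differences. Axin2, a scaffold of the destruction complex and a widely used readout of β-catenin activity, had a signal of 130 on the knockout array and 35.7 on the control array. It was thus 3.13-fold higher in the knockout (1.64 ± 0.24). Nkd2, which binds Dishevelled and dampens Wnt signalling, had 88.8 on the knockout array and 25.7 on the control array. It was 2.97-fold higher (1.57 ± 0.26), so the 2 genes differed by like amounts. The other feedback genes did not share this difference. Nkd1, the paralogue of Nkd2, had 30.8 on the knockout array and 43.0 on the control array (-0.70 ± 0.27), and Apcdd1, a membrane-bound Wnt inhibitor mutated in a human hair loss disorder, had 61.7 on the knockout array and 68.1 on the control array (-0.36 ± 0.22).

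Axin2 and Nkd2 stood at least 2-fold higher under 6 of 7 other scalings, probe rules and value tables. The exception was normexp background correction, where they were at 0.84 and 0.59. Normexp was run with an offset of 50 that is added to every signal, above the control signal of either gene. This offset is also above both signals of Fzd9, Wnt9a, Wif1, Sfrp2 and Lef1, which likewise fell under 2-fold with normexp. Each gene is read by 1 probe, so no second probe checks it. Of the spots well above background within 3 rows and 3 columns, 1 of 23 around Axin2 and 0 of 26 around Nkd2 differed at least 2-fold the same way.

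The 250 bases before the annotated starts of Axin2, Nkd2, Wnt16 and Wnt11 are shown because the first 3 genes stood furthest apart among members measured on both arrays, and Wnt11 holds the Tcf/Lef letters that were searched for. Sequences are from RefSeq on GRCm38.p6, 5′ to 3′ along each gene, for Axin2 at chr11:108920099-108920348 on the plus strand, for Nkd2 at chr13:73847632-73847881 on the minus strand, for Wnt16 at chr6:22287977-22288226 on the plus strand and for Wnt11 at chr7:98834862-98835111 on the plus strand. Capitals mark a match to CTTTGAA or CTTTGAT on either strand, of which these 4 windows hold 1, in Wnt11, on the minus strand and starting 51 bases before the gene.
Axin2: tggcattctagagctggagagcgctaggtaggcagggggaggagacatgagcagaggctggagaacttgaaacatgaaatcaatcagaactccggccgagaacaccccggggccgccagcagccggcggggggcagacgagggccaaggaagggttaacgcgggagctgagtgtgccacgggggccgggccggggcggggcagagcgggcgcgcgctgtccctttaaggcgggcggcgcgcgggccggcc
Nkd2: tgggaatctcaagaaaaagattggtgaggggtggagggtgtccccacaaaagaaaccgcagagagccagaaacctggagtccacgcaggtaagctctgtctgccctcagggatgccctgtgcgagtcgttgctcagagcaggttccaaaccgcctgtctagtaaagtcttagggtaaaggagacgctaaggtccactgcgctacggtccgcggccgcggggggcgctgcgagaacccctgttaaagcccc
Wnt16: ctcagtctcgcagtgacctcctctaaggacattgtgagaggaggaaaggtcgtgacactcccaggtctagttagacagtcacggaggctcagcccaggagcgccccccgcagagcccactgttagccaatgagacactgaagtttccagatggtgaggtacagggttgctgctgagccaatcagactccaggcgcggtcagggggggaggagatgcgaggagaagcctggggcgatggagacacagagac
Wnt11: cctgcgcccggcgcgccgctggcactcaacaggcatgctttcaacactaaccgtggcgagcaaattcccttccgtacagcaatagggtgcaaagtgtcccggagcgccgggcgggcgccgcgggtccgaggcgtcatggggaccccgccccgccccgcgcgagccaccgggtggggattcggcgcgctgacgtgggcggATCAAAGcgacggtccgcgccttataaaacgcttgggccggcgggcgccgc

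Over windows of 300 bases, which add 50 bases past each start, the letters were present in 8.65% of all 32851 promoters in the table and in 3 of 40 promoters of members (7.5%). Those 3 belong to Wnt11, Wnt5b and Dkk1. Of 8 members at least 2-fold apart that have an entry, with 11 promoters, 0 had a match. This says only that the letters are not in these windows. The Wnt16 window holds 9 CpG pairs, against 24 in that of Axin2 and 14 in that of Nkd2.

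Among the ligands, Wnt16 stood apart, Wnt9a did so by its bound, and the other 11 measured on both arrays lay within 2-fold. Wnt16, a ligand known for its role in cortical bone and also made by keratinocytes, had a signal of 52.4 on the knockout array and 198 on the control array. It was 4.40-fold lower (-2.14 ± 0.22) and was at least 2-fold lower under all 7 alternatives, from -2.15 to -1.32. As for Axin2 and Nkd2, averaging probes and leaving out probes near non-uniform spots could not change the value of Wnt16. None of the 24 measured spots around it differed 2-fold the same way, beside 4.38% of all genes that were at least 2-fold lower. Wnt9a, known in mice for joint formation, had 8.31 on the knockout array, not well above background, and 43.2 on the control array, at least 4.16-fold lower, though under 2-fold with normexp (-0.74). Its other probe was not well above background on either array, with 3.44 on the knockout array and 4.57 on the control array.

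Wnt10a, whose loss disturbs hair, teeth and skin in humans, had 5740 on the knockout array and 4760 on the control array (0.05 ± 0.20). Wnt4 had 1130 on the knockout array and 961 on the control array (0.01 ± 0.20). Both ligands thus differed by less than the error of the difference. Wnt3 had 3580 on the knockout array and 2560 on the control array (0.26 ± 0.20), and its second measured probe differed by -0.04. Wnt6 had 301 on the knockout array and 226 on the control array (0.19 ± 0.21). Wnt7b, an activator of hair growth in mice, had 837 on the knockout array and 948 on the control array (-0.40 ± 0.20).

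The members next nearest to the 2-fold threshold on the upper side were Fzd7, Wnt3a and Wnt11. Wnt3a, a classical β-catenin-activating ligand, had 581 on the knockout array and 312 on the control array (0.68 ± 0.20). Wnt11, usually linked to β-catenin-independent signalling, had 155 on the knockout array and 83.8 on the control array (0.67 ± 0.22). Wnt5b, also mostly β-catenin-independent, had 27.1 on the knockout array and 34.9 on the control array (-0.59 ± 0.29). The dim ligands measured on both arrays had wide errors: Wnt1 differed by -0.63 ± 0.52, Wnt9b by -0.37 ± 0.36 and Wnt10b by -0.12 ± 0.38. Wnt7a had 18.2 on the knockout array and 14.7 on the control array, and Wnt8b had 21.3 on the knockout array and 5.44 on the control array, at least 1.44-fold higher. Wnt2, Wnt2b, Wnt5a and Wnt8a were not well above background on either array. This covers Wnt5a, the principal ligand of planar cell polarity, at 12 on the knockout array and 3.56 on the control array.

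Several Wnt genes are direct neighbours in the RefSeq gene order of GRCm38.p6, and neighbours did not always differ alike. Wnt3a and Wnt9a on chromosome 11, with 0 protein-coding genes between them, were at 0.68 and at a bound of -2.06. Wnt9b and Wnt3, also neighbours on chromosome 11, were at -0.37 ± 0.36 and 0.26 ± 0.20, neither far beyond its error. The second measured probe of Wnt3 was at -0.04. Wnt6 and Wnt10a on chromosome 1 were at 0.19 and 0.05, and Wnt10b and Wnt1 on chromosome 15 at -0.12 and -0.63.

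**Figure D2:**
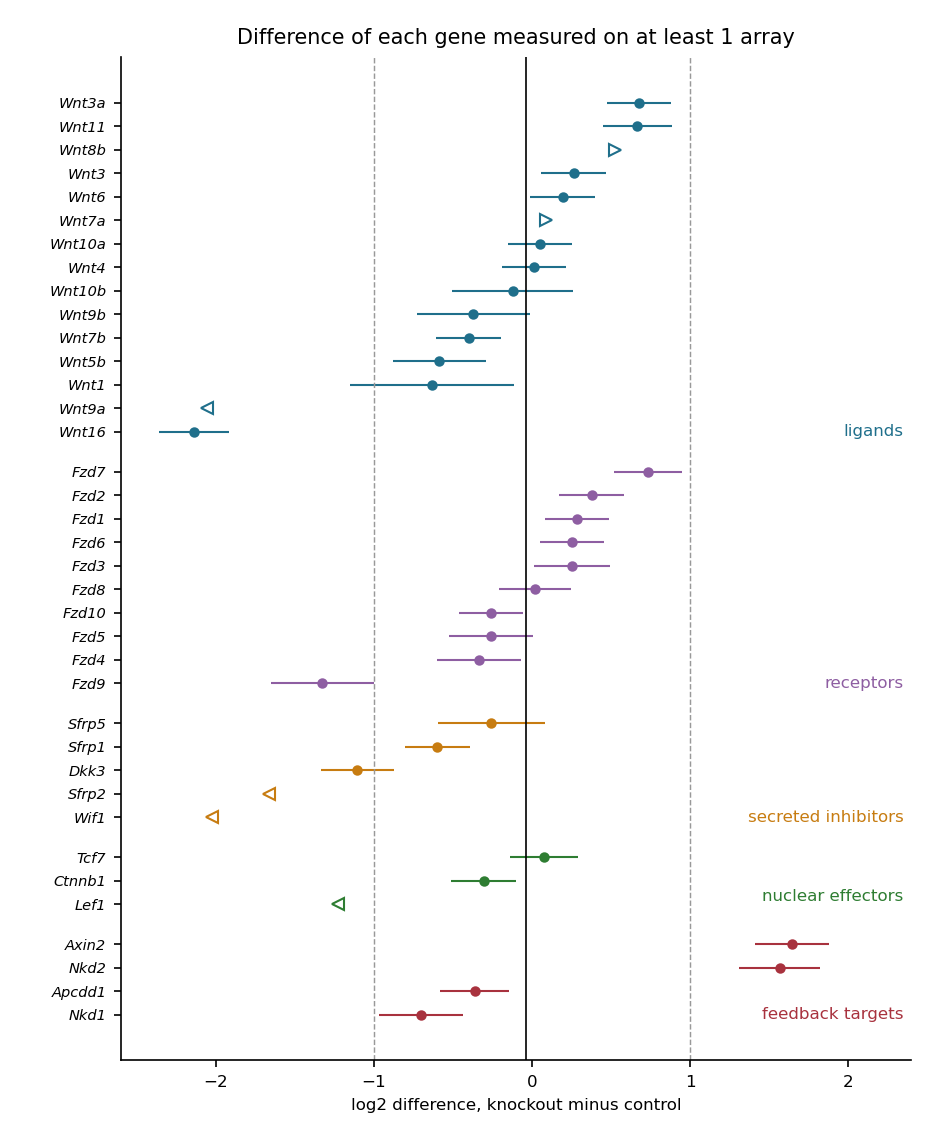
Log2 difference, knockout minus control (horizontal axis), of the 37 members measured on at least 1 array, by role. Points are members measured on both arrays with the standard error of the scanner's error model as bars. Open triangles are bounds, which for Lef1 and Wnt7a are the difference of their own signals and no limit. Dashed lines mark 2-fold and the solid line is the median gene at -0.04. Axin2 and Nkd2 lie beyond the upper dashed line, and Wnt16, Wnt9a, Fzd9, Dkk3, Sfrp2, Wif1 and Lef1 beyond the lower one.

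All 10 Frizzled genes with a probe were measured on both arrays, and 9 lay within 2-fold. The exception was Fzd9, a receptor known from work on bone and neural tissue, with 17.8 on the knockout array and 38.3 on the control array. It was 2.51-fold lower (-1.33 ± 0.33). Of 33 measured spots around it 5 differed at least 2-fold the same way, beside 4.38% of all genes that were at least 2-fold lower. Fzd9 was under 2-fold with median scaling, at -0.98, and with normexp, at -0.50. Fzd7, a receptor of β-catenin signalling in many epithelia, had the largest positive difference of the family, with 172 on the knockout array and 88.7 on the control array (0.74 ± 0.22). Its second probe was not well above background on either array.

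Fzd6, which orients hairs in mice, had 835 on the knockout array and 602 on the control array (0.25 ± 0.20). Fzd1 differed by 0.28 ± 0.20 and Fzd2 by 0.38 ± 0.21. Fzd10 had 3020 on the knockout array and 3100 on the control array, and its 2 measured probes were both at -0.26. The receptors Fzd3, Fzd4, Fzd5 and Fzd8 differed by 0.25, -0.33, -0.26 and 0.02, all with errors of at least 0.23. The measured probes of Fzd3 and of Fzd5 disagreed in sign.

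Of the 3 secreted inhibitors measured on both arrays, Dkk3 was past 2-fold, and Wif1 and Sfrp2 were lower by their bounds. Dkk3, a divergent Dickkopf that unlike its relatives is not known to block Lrp6, had 47.2 on the knockout array and 87.1 on the control array. It was 2.15-fold lower (-1.10 ± 0.23), just past the threshold, and under 2-fold with median scaling (-0.76), quantile normalization (-0.99) and normexp (-0.65). Of 31 measured spots around Dkk3, 4 differed at least 2-fold the same way, beside 4.38% of all genes that were at least 2-fold lower. Sfrp1, a Frizzled-like decoy for Wnts, had 197 on the knockout array and 256 on the control array (-0.60 ± 0.21), with its second probe at -0.39. Sfrp5 had 23.5 on the knockout array and 24.1 on the control array (-0.26 ± 0.34), a difference smaller than its error and above 0 with median scaling (0.09), quantile normalization (0.07) and cyclic loess (0.01).

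Wif1, which binds Wnts directly, had 8.81 on the knockout array and 42.2 on the control array, at least 4.06-fold lower, and under 2-fold with normexp (-0.75). Sfrp2, a decoy made mainly by dermal fibroblasts, had 10 on the knockout array and 32.9 on the control array, at least 3.17-fold lower, and under 2-fold with normexp (-0.61). Only the control array measured either gene. The Lrp6-blocking inhibitors Dkk1, Dkk2 and Dkk4, and Sfrp4, were not well above background on either array, so nothing can be said of their direction.

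Among the nuclear effectors, Ctnnb1 had 3440 on the knockout array and 3650 on the control array (-0.31 ± 0.20), and its second probe was at -0.35. Tcf7, which encodes TCF1, had 106 on the knockout array and 86.2 on the control array (0.08 ± 0.22), while its other measured probe was at -0.22. Lef1, the partner of β-catenin in hair matrix and precortex cells, had 14 on the knockout array, not well above background, and 28.1 on the control array. It was 2.34-fold lower by these signals. Since 14 lies above the lowest signal well above background (12.1), this bound is no lower limit. The bound was under 2-fold with normexp (-0.43), median scaling (-0.88), quantile normalization (-0.91) and cyclic loess (-0.92).

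**Figure D3:**
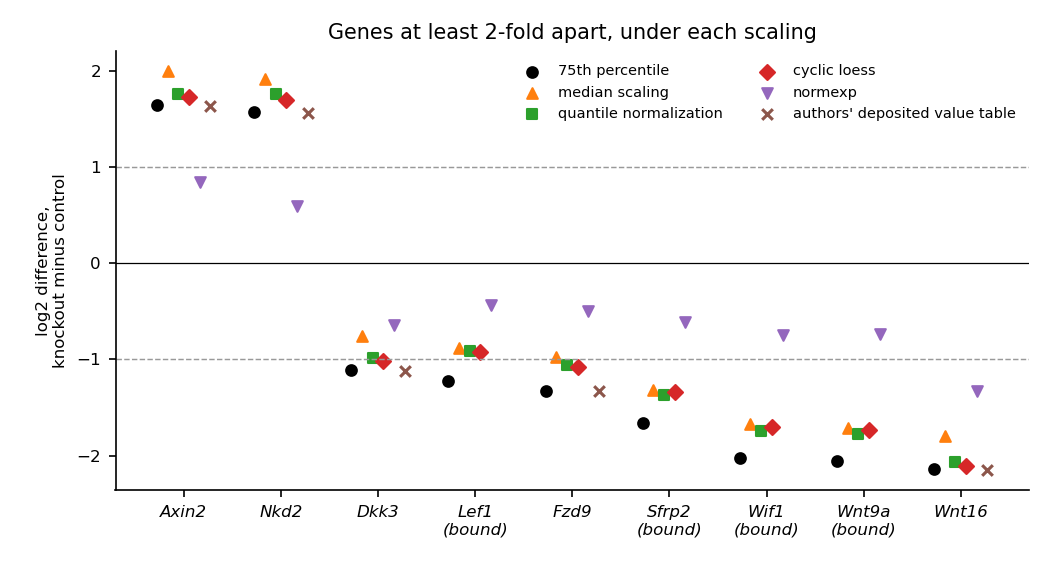
Log2 difference or bound, knockout minus control (vertical axis), of the 9 members at least 2-fold apart, with 1 symbol per scaling or value table, dashed lines at 2-fold and no value from the authors' table for the 4 bounds. Wnt16 stays past the lower dashed line in all of them, Axin2 and Nkd2 fall inside under normexp alone, and Dkk3, Lef1 and Fzd9 cross the line under more than 1.

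Markers of hair follicle compartments and of other cell types that the sheets can hold also differed between the arrays. In bulk tissue, fewer cells of a type and less RNA per cell cannot be told apart. Marker counts past 2-fold are by the brightest probe of each gene. They stand beside 4.38% of all genes measured on both arrays that were lower and 3.03% that were higher. Summed levels are in units of each array's 75th percentile, add different probes and so follow the brightest genes of a list. Of 8 markers of the bulge, germ and upper follicle measured on both arrays, 3 stood lower by 2-fold or more and 0 higher (median -0.63). The list summed to 240 on the knockout array and 390 on the control array, and most of that gap is Plet1 (-3.12), while Krt15, its brightest gene, was at -0.14.

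Inner root sheath markers summed to 153 on the knockout array and 286 on the control array. Of these, 4 of 6 were lower by 2-fold or more, against 4.38% of all genes. All 6 were below 0, with a median of -1.19. Melanocyte markers summed to 2.34 on the knockout array and 9.38 on the control array, with 3 of 4 lower by 2-fold or more and all 4 below 0. Skeletal muscle markers summed to 1.65 on the knockout array and 6.40 on the control array, with 4 of 5 lower by 2-fold or more and all 5 below 0. Endothelial markers summed to 0.372 on the knockout array and 1.66 on the control array, with Vwf at -2.40, Emcn at least 5.35-fold lower and 3 of 6 not well above background on either array. Tek went the other way. It was measured on the knockout array alone, at 19.2 against 4.6 on the control array, at least 1.30-fold higher.

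Hair matrix and shaft markers had a median of 0.29 and sums of 47.0 on the knockout array and 43.8 on the control array. Of 10, Krt34 alone was past 2-fold by its brightest probe (1.40), and Msx2 (-0.97), Krt35 (-0.54) and Hoxc13 (-0.15) were below 0. The measured probes of Krt33b ran from -1.63 to 0.27. Of 14 dermal papilla markers, 9 were not well above background on either array, among them Corin, Sox2 and Rspo3. The list summed to 1.03 on the knockout array and 2.16 on the control array, and within it Crabp1 had the widest gap, with signals of 3.15 on the knockout array and 94.2 on the control array.

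Markers of dermal fibroblasts, the cells best known for Sfrp2, had a median of -0.26, with 7 of 9 below 0 and 1 past 2-fold. Their sums of 39.4 on the knockout array and 34.6 on the control array owe their order to Vim (0.90), and Pdgfra was not well above background on either array. The measured probes of Thy1 ran from -1.23 to -0.26. T cell markers summed to 9.05 on the knockout array and 6.47 on the control array. Of these, 5 of 5 were above 0 (median 0.62) by their brightest probe and 2 were higher by 2-fold or more, against 3.03% of all genes. The measured probes of Cd247, counted among the higher ones, disagreed in sign, from -0.32 to 1.20. Langerhans cell markers summed to 58.0 on the knockout array and 39.5 on the control array. Of these, 4 of 5 were above 0 (median 0.68) and 1 was higher by 2-fold or more. Interfollicular keratinocyte markers summed to 1290 on the knockout array and 1450 on the control array, with 8 of 9 below 0 (median -0.16) and 0 past 2-fold. The part of these markers in the differences of Wnt16, Wnt9a, Wif1, Sfrp2, Lef1, Fzd9 and Dkk3 was not tested.

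The rest of the pathway was read from 6 lists of other Wnt genes, 159 in all, of which 124 were measured on both arrays. Past 2-fold, 3 were higher (2.42%) and 9 lower (7.26%), beside 3.03% and 4.38% of all genes, with a median of -0.14. Of the genes for Wnt secretion and extracellular modulation, 13 of 14 lay within 2-fold, against 92.6% of all genes. Wls, the carrier that brings Wnts to the cell surface, had 3440 on the knockout array and 3540 on the control array (-0.26 ± 0.20). The exception was Trabd2b, a protease that cleaves Wnts, 2.76-fold lower with 19.6 on the knockout array and 46.5 on the control array (-1.47 ± 0.29).

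Of the other receptors and receptor turnover genes, 11 of 11 measured on both arrays lay within 2-fold by their brightest probe, against 92.6% of all genes. Among them were Rnf43 and Znrf3, ubiquitin ligases that remove Frizzleds and are Wnt targets in mouse intestine, at 0.20 and 0.07. The 3 measured probes of Lgr4, an R-spondin receptor, ran from -2.09 to -0.26. Lgr5, its relative in follicle stem cells, was measured on the control array alone, with 12.4 on the knockout array and 48.3 on the control array. It was 4.54-fold lower by these signals. Since 12.4 lies above the lowest signal well above background (12.1), this is no lower limit.

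Of the cytoplasmic genes, 24 of 26 lay within 2-fold by their brightest probe, against 92.6% of all genes. Probes of the casein kinase genes Csnk1a1 (-0.37 to 1.15) and Csnk1g1 (-1.22 to 0.35) disagreed. Within 2-fold were also Axin1, the paralogue of Axin2, at 0.45 ± 0.21 and Apc at 0.32 ± 0.21. Apc2, a relative of Apc best known from neurons, was 4.28-fold lower, with 46.3 on the knockout array and 170 on the control array (-2.10 ± 0.23). Frat1, an inhibitor of Gsk3, was 2.31-fold lower, with 153 on the knockout array and 303 on the control array (-1.21 ± 0.21). Dact1, which binds Dishevelled, was at least 4.24-fold lower and measured on the control array alone. Neither the nuclear cofactors, 18 measured on both arrays, nor the planar cell polarity genes, 23 measured, had a member past 2-fold by its brightest probe, while the 3 measured probes of the cilium and polarity gene Intu ran from -1.82 to 0.43. Their largest differences were -0.81 for Tcf7l1, the repressive Tcf of bulge cells, -0.65 for the coactivator gene Crebbp, -0.90 for the kinase gene Mapk8 and -0.86 for the polarity gene Vangl2.

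Of 32 further Wnt target genes measured on both arrays, 3 were higher and 6 lower by 2-fold or more by their brightest probe. Of all genes, 3.03% were higher and 4.38% lower. Sox9 was counted within 2-fold at -0.94, though its 3 measured probes ran from -2.48 to -0.94. All genes of this list are targets of other pathways too. The higher ones were Id2, an inhibitor of helix-loop-helix factors, with 3130 on the knockout array and 781 on the control array (1.78 ± 0.20), the growth factor gene Vegfa (1.71 ± 0.21) and Myc (1.40 ± 0.20). Myc had 11500 on the knockout array and 3750 on the control array. The lower ones were Krt6a, at -2.27, the AP-1 gene Fosl1, at -1.79, Plaur, at -1.59, Cldn1, at -1.25, the homeobox gene Msx1, at -1.07, and Cd44, with 1680 on the knockout array and 2900 on the control array and probes from -1.49 to -0.73. Sp5, a close β-catenin target in many tissues, was not well above background on either array, with 14.1 on the knockout array and 11.6 on the control array. The same held for Notum, a secreted Wnt deacylase and feedback target.

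**Figure D4:**
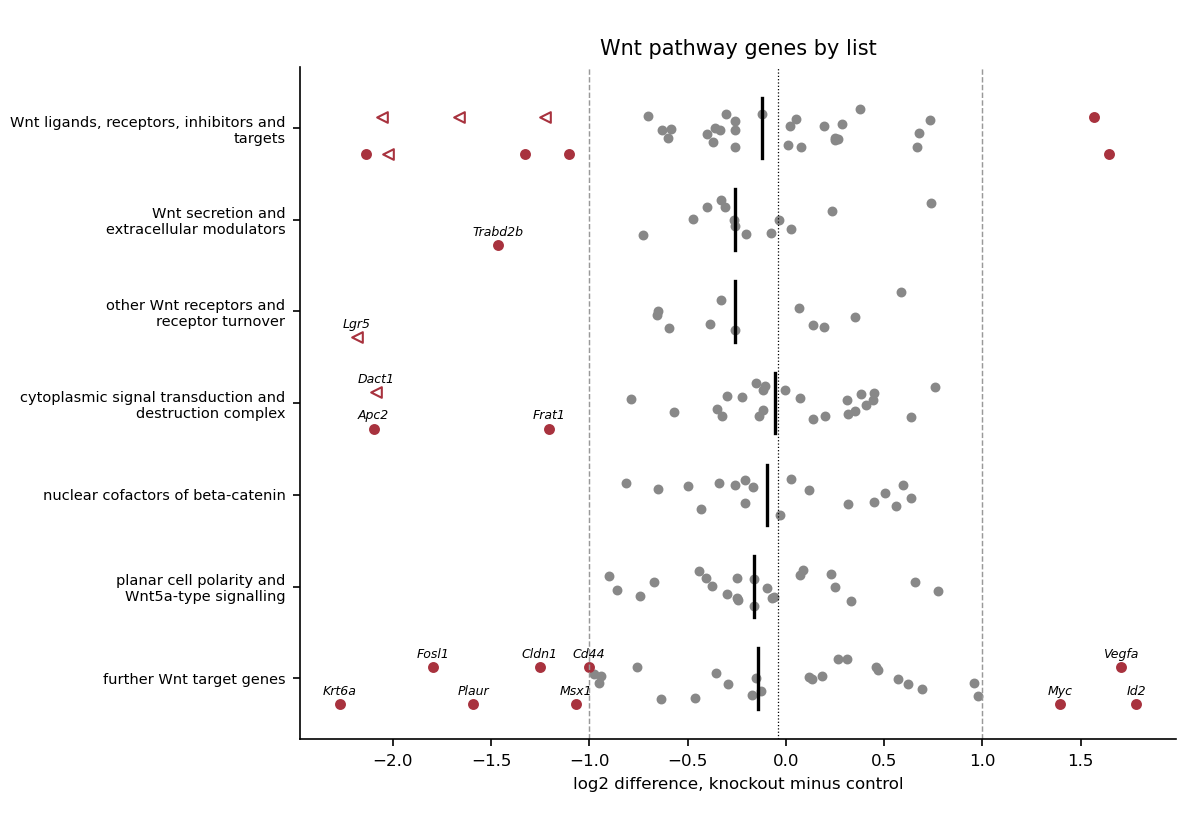
Log2 difference, knockout minus control (horizontal axis), of genes measured on both arrays, with 1 row for the members and 1 for each of 6 lists of other pathway genes. Bars are medians, filled coloured points are at least 2-fold apart, open triangles are bounds, dashed lines mark 2-fold and the dotted line is the median gene. Medians lie between -0.26 and -0.05, and only the top and bottom rows hold points past the upper dashed line.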

How the data were processed

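Total RNA of peeled epidermis was labelled with Cy3 and hybridised to 2 Agilent arrays, 1 per genotype. Per the file headers, the authors quantified both with Agilent Feature Extraction 10.7.3.1 on a design annotated on mm9. Spot intensity in these deposited files is background-subtracted and detrended within the array per the file headers. The authors also deposited a table of log2 values, made by steps that the sources used here do not give. In it the 2 values of each probe add up to 0 (to within 1e-06), and the column medians are -0.14 for the knockout and 0.14 for the control. Differences taken from it tracked the scanner values across probes (Pearson r 1.00, median offset -0.01), so its log2 scale, centring and direction are settled.

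After removal of outlier and control spots and averaging within probes, log2 signals were set against each array's 75th percentile over probes (226 on the knockout array, 194 on the control array). Probes were named through RefSeq accessions in a gene table of GRCm38.p6, which named 26662 of 41134 probes (64.8%). A gene was read by its brightest probe by mean scaled signal, preferring probes measured on both arrays. The lowest signal well above background was 12.1 on the knockout array and 12.7 on the control array.

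Members were genes with symbols starting Wnt, Fzd, Dkk or Sfrp and a digit, with Lrp5, Lrp6, Wif1, Lef1, Tcf7, Axin2, Ctnnb1, Apcdd1, Nkd1 and Nkd2. Members, lists and alternatives were chosen with earlier results of these data known. Named genes were all members measured on at least 1 array and, of each other list, those at least 2-fold apart or else the 2 with the largest difference. Further genes named without passing 2-fold, and Sp5 and Notum, were chosen after their values were seen. The settings tried besides were cyclic loess, quantile normalization, normexp and median scaling (R 4.3.3 with limma 3.58.1), averaging a gene's probes, using the authors' values, and other thresholds and filters. Normexp used median spot signals, without spots marked as non-uniform in signal or background. The calling code was tested on simulated data. Other steps ran in Python 3.11.15 with pandas 2.3.3, numpy 2.4.6 and, for figures, matplotlib 3.10.9.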

Additional observations from a re-analysis of the deposited data

How the results depend on the processing

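No paired analysis was possible because there was 1 array of each kind, and leaving out replicates was not possible either. Median scaling moved every gene up by 0.35 in log2, so that the median gene lay at 0.31. Under it Nfkbiz was at -0.69, the median of the members was 0.23, and 5 members were at least 2-fold higher (Fzd7, Wnt11 and Wnt3a besides Axin2 and Nkd2) and 1 lower, Wnt16. Over all genes the counts higher and lower were 376 and 544 with the 75th percentile and 1027 and 281 with median scaling. Counted from the median gene, a choice made after seeing the data, the members called were 2 and 3 under either scaling. This had to be so, since median scaling moves every gene by the same amount, and it is no further check. Normexp left 0 members higher and 1 lower, Wnt16, and 184 and 227 of all genes. At 1.5-fold 5 members were higher and 7 lower, and at 3-fold 1 and 1. With members measured on at least 1 array at their own signals, 3 were higher, Wnt8b besides Axin2 and Nkd2, and 7 lower. The 9 members at least 2-fold apart kept their direction under every alternative run. Averaging probes and leaving out probes near non-uniform spots could not change the value or bound of any of these 9. Of the 28 other members measured on at least 1 array, 9 changed sign under at least 1 alternative, 6 of them under median scaling. The authors' table gives no bound, so the 4 bounds have no value from it. Signals near background limit what can be said of 14 members that were not measured on both arrays, and a probe read on 1 array per genotype cannot show how much mice differ.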
